A study of Mus musculus with 4 samples.

Results

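The loci of the Krüppel-like factor genes Klf2, Klf4 and Klf5 were examined in chromatin immunoprecipitation libraries of mouse embryonic stem cells. Each locus was taken as a fixed window of mm9 around its start site. The bounds used no measured values, though genes and settings were chosen with earlier results of these data known. The Klf2 window was 25 kb of chromosome 8 with the gene on the plus strand, the Klf4 window 30 kb of chromosome 4 with the gene on the minus strand, and the Klf5 window 40 kb of chromosome 14 with the gene on the plus strand. The 3 windows held 17 of the 37520 deposited peaks, of which 2 of 5106 came from the LSD1 list, 15 of 32256 from the H3K4me2 list and 0 of 158 from the IgG list. The study set an LSD1 ChIP library and a ChIP library for H3K4me2, the dimethyl form of histone H3 lysine 4, beside DNA recovered with control IgG and unprecipitated genomic DNA (Input). All 4 came from 129SV embryonic stem cells of the line R1, at passages 13 to 18, grown on gelatin with leukaemia inhibitory factor (LIF) at 1000 U/ml and fixed with formaldehyde at 1%, with no other treatment and no genetic change named. Each group held 1 library, so every difference is one between these libraries and no p-value is given. The LSD1 library held 5833862 reads and the H3K4me2 library 6416657, against 4755619 in IgG and 3801082 in Input. RPM is reads per 1000000 reads of the library, and ranges in parentheses are exact 95% intervals that cover counting error only. The product number that the protocol gives for anti-LSD1 belongs, as far as is known, to an H3K27me3 antibody from a different maker, so the name LSD1 only follows the label.

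Krüppel-like factors are transcription factors with zinc fingers at the end of the protein that bind GC-rich and CACCC-containing DNA. In mouse embryonic stem cells Klf2, Klf4 and Klf5 share many target sites with Nanog and together sustain self-renewal. Klf4, one of the factors used to reprogram fibroblasts to pluripotency, is induced by LIF through Stat3. LSD1 is a histone demethylase that acts on H3K4me2 and H3K4me1, and H3K4me2 marks nucleosomes at promoters and enhancers of active and poised genes.

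The DNA just before the start sites is shown because no called peak covered any of the 3 start sites. RefSeq's table of promoters (GRCm38.p6) held Klf2 and Klf4, 2 of the 3 genes. The 250 bases before the start are written in the direction of transcription. Klf2 lies at chr8:72318812-72319061 on the plus strand and Klf4 at chr4:55532476-55532725 on the minus strand, in that build. Capitals mark the GC box GGGCGG and the CACCC box on either strand, where they read CCGCCC and GGGTG if they lie on the other one.
Klf2: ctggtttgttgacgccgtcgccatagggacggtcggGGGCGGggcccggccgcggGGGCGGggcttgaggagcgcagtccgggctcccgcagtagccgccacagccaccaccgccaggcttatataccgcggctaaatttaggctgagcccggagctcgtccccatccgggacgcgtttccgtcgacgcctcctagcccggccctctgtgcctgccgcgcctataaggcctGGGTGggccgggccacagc
Klf4: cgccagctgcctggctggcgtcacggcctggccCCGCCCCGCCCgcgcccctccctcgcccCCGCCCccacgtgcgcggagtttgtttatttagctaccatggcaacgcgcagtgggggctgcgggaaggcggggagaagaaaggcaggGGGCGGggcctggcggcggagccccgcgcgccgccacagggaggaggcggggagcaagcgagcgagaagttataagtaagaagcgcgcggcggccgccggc

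The Klf2 stretch held 2 GC boxes and 1 CACCC box, and the Klf4 stretch held 4 GC boxes, of which a pair overlapped, and 0 CACCC boxes. Of all 32851 promoter stretches of that table, 32.7% held a GC box and 52.0% a CACCC box. GC content was 71.2% in Klf2 and 74% in Klf4, against a median of 52.4% over the table. Klf2 held 29 CG dinucleotides and Klf4 32, against a median of 6. The reads below were placed on mm9, so none was counted on these letters themselves.

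Within 250 bp of the start sites the ChIP libraries did not stand above IgG. At Klf2 this stretch of 500 bp held 8 LSD1 reads and 9 H3K4me2 reads, against 7 IgG reads and 1 Input read. At Klf4 it held 4 LSD1 reads and 3 H3K4me2 reads, against 2 IgG reads and 1 Input read. At Klf5 it held 4 LSD1 reads and 5 H3K4me2 reads, against 7 IgG reads and 2 Input reads. Of the 6 ratios of a ChIP library to IgG, every interval included 1, the highest ratio being 1.63 (exact 95% interval 0.23 to 18.0) for LSD1 at Klf4. For LSD1 the upper bounds were 3.02 at Klf2, 18.0 at Klf4 and 1.83 at Klf5, so the counts over 500 bp allow an excess over IgG up to these bounds.

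Farther out, H3K4me2 peaks flanked the start sites of Klf2 and Klf5 on both sides and that of Klf4 on one. No H3K4me2 peak covered a start site, whose position is taken to the nearest 100 bp. At Klf2 the nearest peak lay 81 bp upstream and the next 1718 bp downstream, leaving an uncalled stretch of 1798 bp with 31 LSD1 reads and 30 H3K4me2 reads, against 11 IgG reads and 6 Input reads. LSD1 exceeded IgG in it 2.30-fold (1.12 to 5.07), while the H3K4me2 to IgG ratio was 2.02 with an interval including 1 (0.98 to 4.47). At Klf5 the nearest peaks lay 95 bp upstream and 698 bp downstream, with 792 bp between them that held 13 LSD1 reads and 7 H3K4me2 reads, against 5 IgG reads and 2 Input reads. In this stretch of Klf5 the ratios to IgG were 2.12 (0.71 to 7.59) for LSD1 and 1.04 (0.28 to 4.15) for H3K4me2, both intervals including 1. At Klf4 the nearest peak began 362 bp downstream, and no peak was called upstream in the window or in the 100 kb before it.

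**Figure D1:**
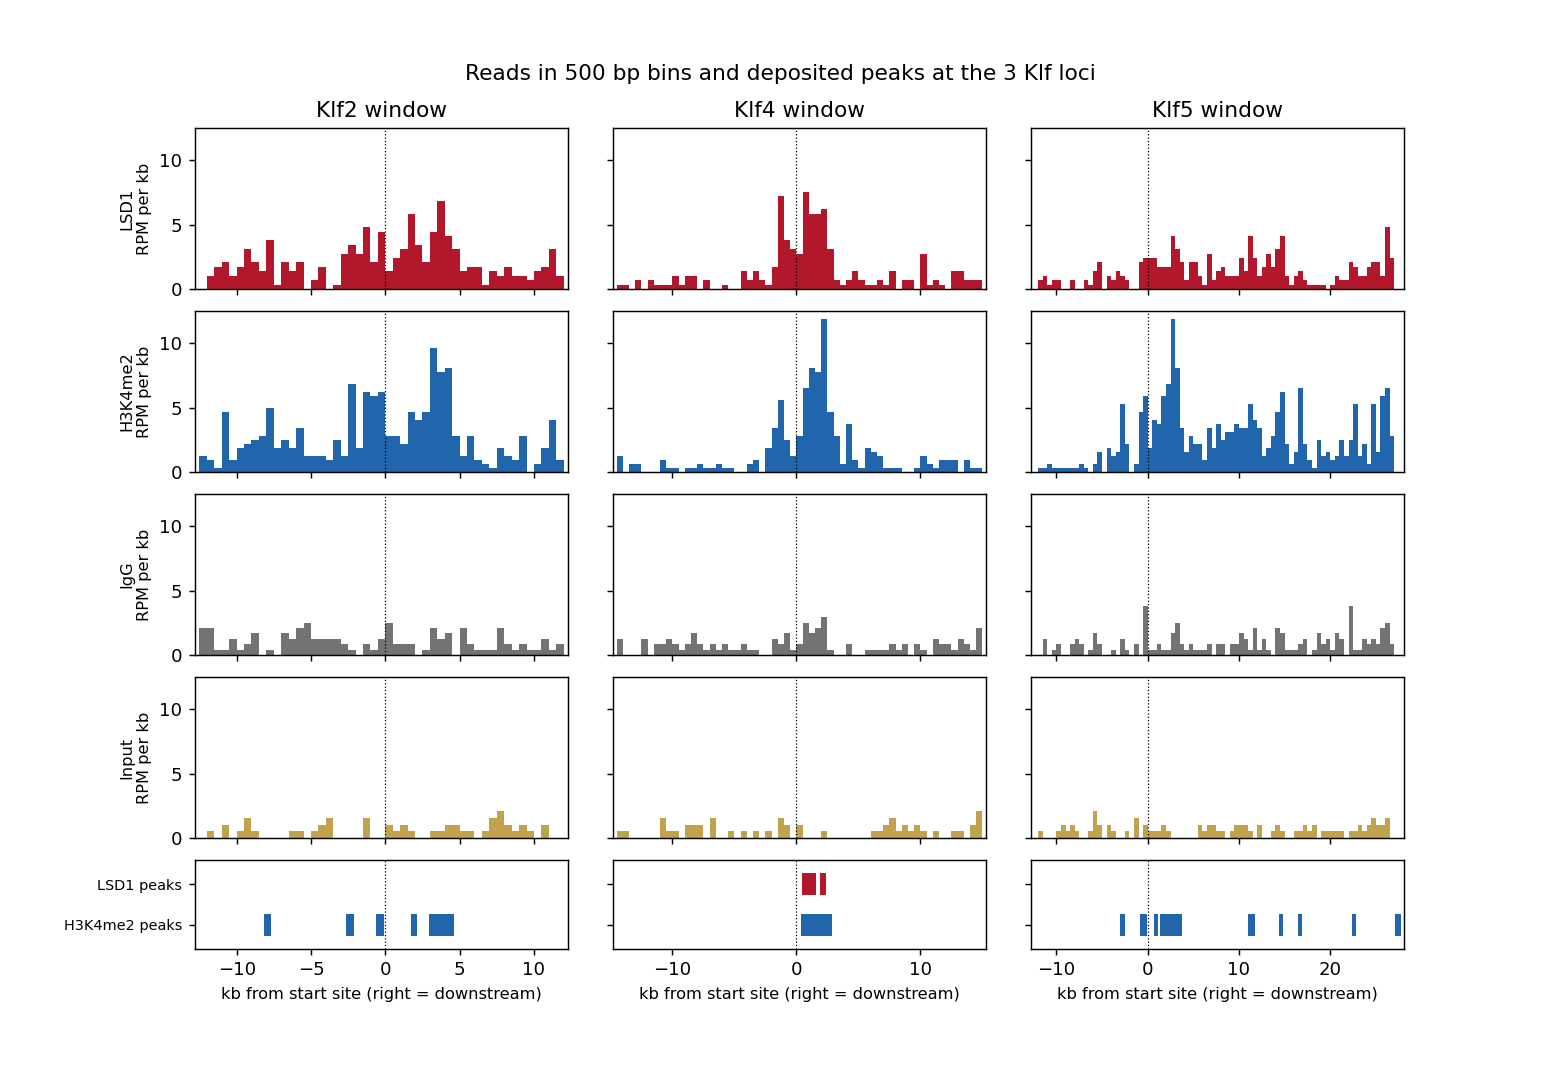
RPM per kb in bins of 500 bp, by distance from the start site in the direction of transcription (dotted line at 0), for LSD1, H3K4me2, IgG and Input from top to bottom, with the deposited peaks as bars in the lowest row (the IgG list had none here). The highest LSD1 bin reached 6.86 RPM per kb at Klf2, 7.54 at Klf4 and 4.80 at Klf5.

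Both called LSD1 peaks lay at Klf4, inside the single H3K4me2 peak of its window. That H3K4me2 peak ran on chromosome 4 from 55542391 to 55544938, 362 to 2909 bp downstream of the start site, and its width of 2548 bp ranked 358 of 32256 in the list. It held 84 LSD1 reads and 127 H3K4me2 reads, against 23 IgG reads and 1 Input read. LSD1 exceeded IgG there 2.98-fold (1.86 to 4.95) and H3K4me2 exceeded IgG 4.09-fold (2.61 to 6.69). H3K4me2 peaks, here and below, were called on the H3K4me2 reads, so their H3K4me2 counts are not independent of the call. IgG was itself high in this peak, at 1.90 RPM per kb against 1.09 over all H3K4me2 peaks, and exceeded Input 18.4-fold (2.99 to 757) on the strength of a single Input read. Its part in the ratios was not tested.

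The LSD1 peak nearer the start, from 55543758 to 55544829, held 44 LSD1 reads and 54 H3K4me2 reads, against 10 IgG reads and 0 Input reads. The second, from 55542876 to 55543397, held 22 LSD1 reads and 31 H3K4me2 reads, against 6 IgG reads and 1 Input read. LSD1 exceeded IgG 3.59-fold (1.78 to 7.99) in the first and 2.99-fold (1.18 to 9.01) in the second, so the interval lay above 1 in both, as it did in 89.6% of all LSD1 peaks. With read starts left unshifted, the interval of the second included 1 (0.89 to 6.23). Reads came from both strands, with 25 plus and 19 minus LSD1 reads in the first peak and 11 of each in the second. The first was 1072 bp wide, rank 74 of 5106, and its LSD1 density of 7.04 RPM per kb stood at the list's median of 7.04. The second had 7.22 RPM per kb, above 58.9% of the list. The peaks were called on these reads, so their LSD1 counts are not independent of the call. Both shared bases with an H3K4me2 peak, as 91.7% of all LSD1 peaks did. Of the 15 H3K4me2 peaks at the 3 loci, 1 held an LSD1 peak, against 14.2% of the list.

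Upstream of Klf4 a second rise was visible in both ChIP libraries without a call in either list. The bin from 1500 to 1000 bp before the start held 21 LSD1 reads and 18 H3K4me2 reads, against 2 IgG reads and 3 Input reads. The LSD1 density of this bin, 7.20 RPM per kb, lay above the lowest density in the LSD1 list, 4.97 RPM per kb. Over the 2 kb before the start LSD1 reached 3.94 RPM per kb and H3K4me2 3.19, against 1.05 for IgG and 0.66 for Input, and LSD1 exceeded IgG 3.75-fold (1.87 to 8.33). Over the 2 kb after it the values were 5.49 for LSD1 and 6.31 for H3K4me2, against 1.79 for IgG and 0.26 for Input.

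At Klf2 LSD1 reads stood above IgG around the gene although no LSD1 peak was called in the window. H3K4me2 peaks numbered 12.2 per Mb over the genome, which was not limited to start sites, and 33.3 per Mb in the Klf4 window. The Klf2 window held 5, at 200 per Mb. The widest, on chromosome 8 from 74845834 to 74847533 and 2934 to 4633 bp downstream of the start, held 49 LSD1 reads and 87 H3K4me2 reads, against 12 IgG reads and 4 Input reads. LSD1 exceeded IgG there 3.33-fold (1.74 to 6.88) and H3K4me2 5.37-fold (2.92 to 10.8). Its LSD1 density over all 1700 bp, 4.94 RPM per kb, lay just below the lowest in the LSD1 list, whose median width was 461 bp. The bin from 3500 to 4000 bp after the start, inside this peak, held 20 LSD1 reads and 3 IgG reads. At 6.86 RPM per kb, the window's highest for LSD1, that bin lay above the lowest density in the LSD1 list. The upstream peak from 74840271 to 74840792 reached 5.25 RPM per kb, just above that lowest value and above only 0.16% of the LSD1 list. That upstream peak held 16 LSD1 reads and 26 H3K4me2 reads, against 2 IgG reads and 0 Input reads, and LSD1 exceeded IgG in it 6.52-fold (1.53 to 58.5).

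The other 3 H3K4me2 peaks of Klf2 held between 6 and 13 LSD1 reads and between 18 and 23 H3K4me2 reads, against 1 to 3 IgG reads and 0 Input reads. The peak that ended 81 bp before the start, from 74842263 to 74842819, had an LSD1 to IgG ratio of 3.53 (0.97 to 19.3) and an H3K4me2 to IgG ratio of 5.68 (1.72 to 29.6). The peak from 74844618 to 74845065 had ratios of 4.89 (1.09 to 45.0) and 6.67 (1.60 to 59.3). In the farthest, from 74834720 to 74835179, the 6 LSD1 reads all lay on the minus strand. Of the 5 peaks, 3 had an LSD1 interval above 1 and 5 had an H3K4me2 interval above 1. Over all H3K4me2 peaks these shares were 54.4% for LSD1 and 97.0% for H3K4me2. The H3K4me2 shares are not independent of the peak call, which used the same reads.

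At Klf5, in the longest of the 3 windows, H3K4me2 peaks were most numerous and LSD1 was low beside them. The window held 9 H3K4me2 peaks, at 225 per Mb, from -3041 bp to 27779 bp relative to the start, the last of which crossed the window's end. The widest ran on chromosome 14 from 99699109 to 99701566, at 1309 to 3766 bp after the start, and held 36 LSD1 reads and 120 H3K4me2 reads, against 15 IgG reads and 3 Input reads. H3K4me2 exceeded IgG there 5.93-fold (3.45 to 10.9), whereas LSD1 exceeded IgG 1.96-fold (1.04 to 3.85). By reads it stood above 98.0% of the list for H3K4me2 and 90.9% for LSD1. By density it stood above 75.6% of the list for H3K4me2 and, at 2.51 RPM per kb, above 22.1% for LSD1.

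The other 8 peaks of Klf5 held between 3 and 14 LSD1 reads and between 16 and 32 H3K4me2 reads, against 1 to 6 IgG reads and 0 to 2 Input reads. The first, from 99694759 to 99695325, held 3 LSD1 reads and 19 H3K4me2 reads, against 3 IgG reads and 0 Input reads. The peak from 99698498 to 99698963, after the start, held 4 LSD1 reads and 16 H3K4me2 reads, against 1 IgG read and 1 Input read. The peak that ended 95 bp before the start, from 99696944 to 99697705, held 10 LSD1 reads and 32 H3K4me2 reads, against 6 IgG reads and 2 Input reads. The bin of 500 bp before the start, which overlaps this peak, was one of the highest for IgG in the window, with 7 LSD1 reads and 19 H3K4me2 reads, against 9 IgG reads and 2 Input reads. The most LSD1 reads among the 8, 14 each, were in the peaks from 99708791 to 99709538 and from 99712138 to 99712667. In the first of these LSD1 exceeded IgG 3.80-fold (1.06 to 20.7), and in the second the ratio was 1.90 (0.69 to 6.04). Farther out, the peaks from 99714243 to 99714658 and from 99720219 to 99720653 held 3 and 7 LSD1 reads and 19 and 18 H3K4me2 reads, against 2 and 3 IgG reads and 1 Input read each. The last, from 99724923 to 99725579, held 11 LSD1 reads and 30 H3K4me2 reads, against 4 IgG reads and 1 Input read. Of the 9 peaks, 2 had an LSD1 interval above 1 and 9 an H3K4me2 interval above 1. Over the 3 loci together the counts were 6 and 15 of 15 peaks, beside the shares of 54.4% and 97.0% in the whole list. The counts of reads per peak limit this comparison, and the H3K4me2 counts are not independent of the peak call.

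**Figure D2:**
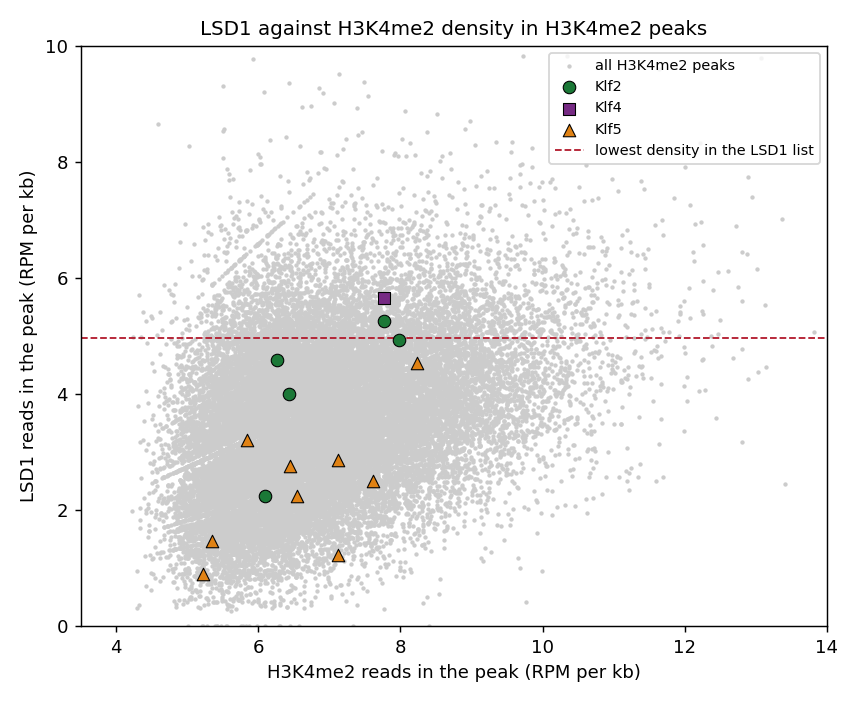
Density of LSD1 reads against density of H3K4me2 reads (RPM per kb) in each H3K4me2 peak, with the 5 peaks of Klf2, 1 of Klf4 and 9 of Klf5 marked among all 32256 (grey; 36 lie beyond the axes). All 9 Klf5 peaks lie below the lowest density in the LSD1 list (dashed, 4.97), as do 88% of all H3K4me2 peaks, while the Klf4 peak (5.65) and 1 Klf2 peak (5.25) lie above it. These densities stand above 1.51% and 0.16% of the LSD1 list. All are averages over whole H3K4me2 peaks, of median width 734 bp against 461 bp in the LSD1 list.

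Within 2 kb of the start sites both ChIP libraries exceeded IgG at all 3 genes. At Klf2 this region of 4000 bp held 78 LSD1 reads and 105 H3K4me2 reads, against 18 IgG reads and 9 Input reads, or 13.4 RPM (10.6 to 16.7) for LSD1 and 16.4 (13.4 to 19.8) for H3K4me2, against 3.79 (2.24 to 5.98) for IgG and 2.37 (1.08 to 4.49) for Input. At Klf4 it held 110 LSD1 reads and 122 H3K4me2 reads, against 27 IgG reads and 7 Input reads. At Klf5 it held 37 LSD1 reads and 86 H3K4me2 reads, against 16 IgG reads and 10 Input reads. The LSD1 count was thus highest at Klf4, with an interval of 15.5 to 22.7 RPM that overlapped that of Klf2, and lowest at Klf5, at 4.47 to 8.74 RPM, below both. The H3K4me2 intervals overlapped among the 3 genes.

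LSD1 exceeded IgG 3.53-fold (2.10 to 6.27) at Klf2, 3.32-fold (2.16 to 5.26) at Klf4 and 1.89-fold (1.02 to 3.63) at Klf5. H3K4me2 exceeded IgG 4.32-fold (2.61 to 7.58), 3.35-fold (2.19 to 5.29) and 3.98-fold (2.32 to 7.28) at the same genes. The interval lay above 1 at 3 of 3 start sites for each antibody, while among 606520 tiles of 4 kb with Input reads across the genome it did so in 4.20% for LSD1 and 6.53% for H3K4me2. The LSD1 count exceeded that of 99.8% of tiles at Klf2, 99.98% at Klf4 and 97.2% at Klf5, and the IgG count that of 96.3%, 99.8% and 93.3%. Ranked by LSD1 over IgG, with 0.5 reads added to each count, the start sites stood above 97.9%, 97.6% and 88.6% of tiles. The tiles were not limited to start sites. The LSD1 call at Klf5 was not firm: its interval included 1 within 1 kb of the start (0.96 to 4.47), with reads moved by 50 bp (1.83, 0.99 to 3.54) and when scaled to the flanks (1.45, 0.79 to 2.79).

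**Figure D3:**
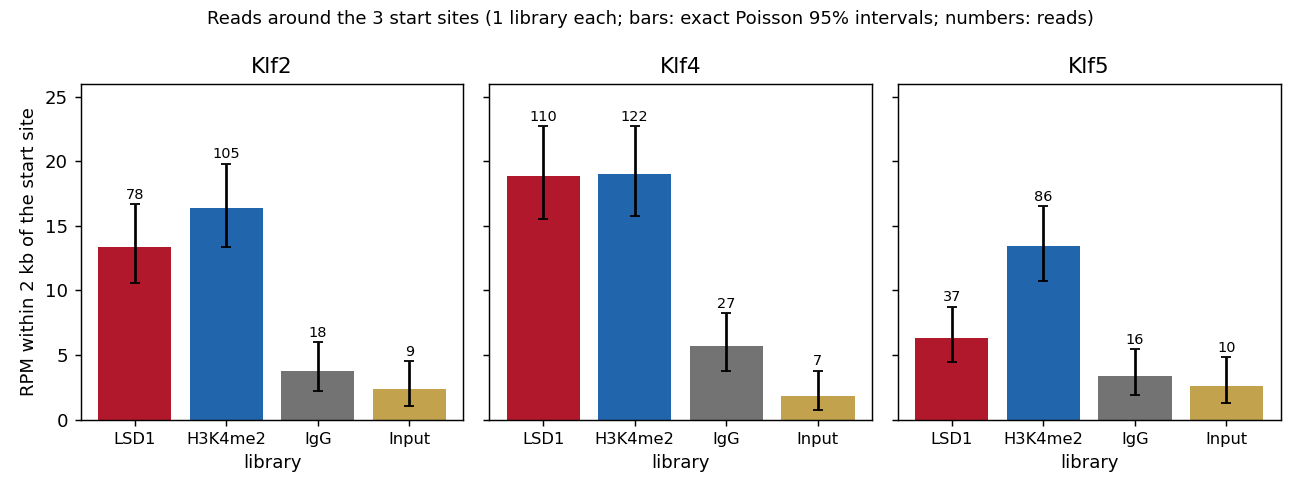
RPM within 2 kb of each start site in the LSD1, H3K4me2, IgG and Input libraries, with 1 library a bar, exact Poisson 95% intervals and the number of reads above each bar. LSD1 ran from 37 reads at Klf5 to 110 at Klf4, while IgG ran from 16 to 27.

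The 3 genes were then compared with each other. Of the ratios to IgG within 2 kb, no pair of genes differed beyond counting error for either antibody. Klf5 had 0.54 of the LSD1 to IgG ratio of Klf2, with an interval of 0.23 to 1.26. For H3K4me2 the largest departure was 0.78 (0.38 to 1.55) for Klf4 over Klf2. These intervals allow differences of more than 2-fold.

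Read against each other, LSD1 and H3K4me2 separated Klf5 from Klf2 and Klf4 within 2 kb. Within 2 kb the LSD1 to H3K4me2 ratio was 0.82 (0.60 to 1.11) at Klf2, 0.99 (0.76 to 1.29) at Klf4 and 0.47 (0.31 to 0.70) at Klf5. Outside called peaks in the flanks of 100 kb it was 0.93 (0.85 to 1.02), 1.09 (0.97 to 1.22) and 0.97 (0.88 to 1.07). The intervals of Klf2 and Klf4 thus overlapped those of their flanks, and that of Klf5 lay below its flank. Klf4 exceeded Klf5 2.09-fold (1.29 to 3.44), and Klf5 had 0.58 (0.35 to 0.96) of the ratio of Klf2. Klf4 and Klf2 did not differ beyond counting error, at 1.21 (0.81 to 1.83). Within 1 kb the difference of Klf5 and Klf2 was lost, at 0.97 (0.48 to 1.93), and Klf4 exceeded Klf2 2.25-fold (1.19 to 4.33). Within 5 kb, the window and its H3K4me2 peaks Klf5 stayed below Klf2, at 0.60 (0.43 to 0.82), 0.71 (0.58 to 0.87) and 0.59 (0.42 to 0.84). In the same regions Klf4 over Klf2 was 1.16 (0.87 to 1.55), 1.18 (0.93 to 1.49) and 1.18 (0.80 to 1.75), each interval including 1. Klf4 exceeded Klf5 within 1 kb, 5 kb, the window and its H3K4me2 peaks as well. The intervals are not adjusted for the 3 pairs.

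In the H3K4me2 peaks of the windows, pooled by gene, this ratio was 0.61 (0.47 to 0.79) at Klf2, 0.73 (0.55 to 0.97) at Klf4 and 0.36 (0.29 to 0.45) at Klf5, against 0.51 over all H3K4me2 peaks and 0.85 over all LSD1 peaks. Relative to all H3K4me2 peaks, Klf4 stood at 1.42 (1.06 to 1.88), Klf5 at 0.70 (0.56 to 0.88) and Klf2 at 1.19 (0.92 to 1.54). In the same peaks LSD1 exceeded IgG 3.91-fold (2.40 to 6.69) at Klf2, 2.98 (1.86 to 4.95) at Klf4 and 1.93 (1.34 to 2.83) at Klf5, against 3.38 over all H3K4me2 peaks. Klf5 thus had 0.57 (0.40 to 0.84) of the LSD1 to IgG ratio of all H3K4me2 peaks, whereas its H3K4me2 to IgG ratio of 5.34, against 6.57 over the list, did not differ beyond counting error (0.81, 0.59 to 1.15). At Klf4 LSD1 over IgG stood at 0.88 (0.55 to 1.47) and the H3K4me2 to IgG ratio 0.62 (0.40 to 1.02) of the list's, so LSD1 there was above the list relative to H3K4me2 and not relative to IgG. Between genes, Klf5 had 0.50 (0.26 to 0.93) of the LSD1 to IgG ratio of Klf2 in these peaks.

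**Figure D4:**
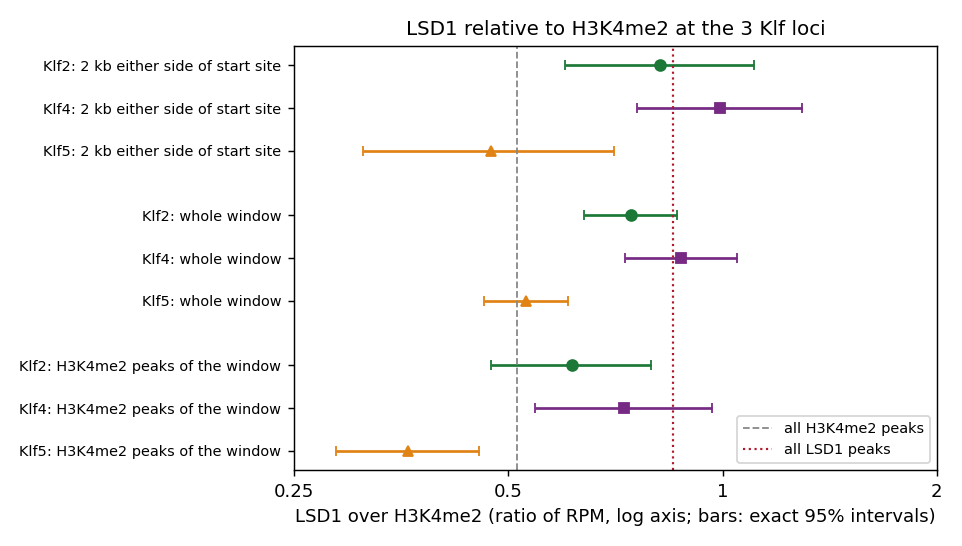
Ratio of LSD1 to H3K4me2 in RPM (log axis) for Klf2, Klf4 and Klf5 within 2 kb of the start site, in the whole window and in the H3K4me2 peaks of the window, with exact 95% intervals. Klf5 lies lowest in each of the 3 sets, at 0.47, 0.53 and 0.36, beside lines for all H3K4me2 peaks (0.51) and all LSD1 peaks (0.85).

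Over whole windows the ratios were smaller. The Klf2 window held 300 LSD1 reads and 444 H3K4me2 reads, against 118 IgG reads and 50 Input reads. The Klf4 window held 222 LSD1 reads and 279 H3K4me2 reads, against 106 IgG reads and 51 Input reads. The Klf5 window held 314 LSD1 reads and 652 H3K4me2 reads, against 160 IgG reads and 86 Input reads. LSD1 exceeded IgG 2.07-fold (1.67 to 2.59) at Klf2, 1.71-fold (1.35 to 2.17) at Klf4 and 1.60-fold (1.32 to 1.95) at Klf5. H3K4me2 exceeded IgG 2.79-fold (2.27 to 3.45), 1.95-fold (1.55 to 2.46) and 3.02-fold (2.54 to 3.61). For H3K4me2 Klf4 had 0.70 (0.51 to 0.96) of the ratio of Klf2 and 0.65 (0.48 to 0.87) of that of Klf5.

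Part of this lay outside every called peak. There H3K4me2 exceeded IgG 2.06-fold (1.63 to 2.62) at Klf2, 1.36-fold (1.03 to 1.80) at Klf4 and 2.31-fold (1.87 to 2.87) at Klf5, and LSD1 exceeded IgG 1.70-fold (1.33 to 2.18), 1.36-fold (1.02 to 1.80) and 1.51-fold (1.21 to 1.91). In the flanks of 100 kb on either side, also outside called peaks, the H3K4me2 ratios were 1.16 (1.05 to 1.28), 1.07 (0.94 to 1.21) and 1.34 (1.20 to 1.50), and the LSD1 ratios 1.08 (0.98 to 1.20), 1.16 (1.02 to 1.32) and 1.30 (1.16 to 1.46). The window and flank intervals for H3K4me2 did not overlap at Klf2 and Klf5 and overlapped at Klf4. Those for LSD1 did not overlap at Klf2 and overlapped at Klf4 and Klf5.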

How the data were processed

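Aligned reads of 36 bases were deposited by the authors as 1 line per read, and reads were counted from these lines. The submitters' processing notes name the build mm9. Aligner, filters, peak caller, threshold and control: not given in the sources used here. The deposited peak lists hold positions only. No library repeated a start and strand. Fragments of about 200 bp were selected, per the labels' protocols.

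Read starts were shifted by 100 bp towards the fragment's middle. Intervals of RPM are exact Poisson, those of RPM ratios exact binomial given the total of the counts compared, and those of differences between regions exact conditional odds ratio intervals. A shared base of 1 bp made peaks overlap. Ranks among tiles refer to read counts or, where stated, to LSD1 over IgG. Shares of tiles with an interval above 1 refer to ratios to IgG. No gene table of mm9 was used, so peaks were not assigned to exons or introns and the other Klf genes were not analysed here. The 3 genes and every peak touching their windows are named. Genes and settings were chosen with earlier results of these data known. Tools were scipy 1.17.1, numpy 2.4.6, matplotlib 3.10.9, pandas 2.3.3 and Python 3.11.15.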

Additional observations from a re-analysis of the deposited data

How the results depend on the processing

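Over 56 results, 191 alternative values were computed. The direction turned in 1, LSD1 over IgG in the first Klf5 peak, which was -0.29 on the log2 scale with IgG and 2.19 with Input, and whose intervals both included no change. In single peaks 1 interval above no change was lost, in the second Klf4 LSD1 peak with unshifted starts, and 3 were gained, each with Input as the control. Of these, 27 left the interval of the reported value. Alternatives for LSD1 over H3K4me2 between genes were chosen after seeing the data. No paired analysis was possible because there was only 1 library in a group. With Input as the control, LSD1 within 2 kb of the Klf4 start was 10.2 and H3K4me2 10.3. In the windows Input gave 3.91 for LSD1 and 5.26 for H3K4me2 at Klf2, 2.84 and 3.24 at Klf4, and 2.38 and 4.49 at Klf5. H3K4me2 outside its peaks was 2.06 at Klf2, 1.36 at Klf4 and 2.31 at Klf5, and scaling to reads outside peaks gave 3.66 in the Klf5 window. Within 1 kb, LSD1 at Klf2 was 2.04, and LSD1 over H3K4me2 was 2.25 for Klf4 over Klf2 and 0.97 for Klf5 over Klf2. Of the single-peak values, 12 moved, each with Input as the control. Few reads per peak limit every value, and the cause of these moves was not tested.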

Other observations

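Beyond the windows, the flanks of 100 kb held H3K4me2 peaks far from the start sites. Downstream of Klf4 there were 10, of which 9 lay between 50234 and 69079 bp from the start, on chromosome 4 from 55476221 to 55495066. No LSD1 peak was called among them. The 10 held 152 LSD1 reads and 444 H3K4me2 reads, against 34 IgG reads and 20 Input reads. LSD1 exceeded IgG 3.64-fold (2.50 to 5.45) and H3K4me2 9.68-fold (6.82 to 14.2) there. The H3K4me2 counts of these peaks are likewise not independent of the call. The LSD1 to H3K4me2 ratio was 0.73 in the H3K4me2 peak next to the Klf4 start and 0.38 in the downstream peaks, a 1.93-fold difference (1.37 to 2.72). The same comparison with downstream peaks gave 1.44 (1.01 to 2.06) at Klf2 and 0.81 (0.57 to 1.17) at Klf5. In the upstream flank of Klf2 the ratio in H3K4me2 peaks was 0.50 (0.39 to 0.63), against 0.61 (0.47 to 0.79) in its window. That difference was not tested. Against IgG, LSD1 did not differ between the Klf4 peak and the downstream peaks beyond counting error, at 0.82 (0.44 to 1.56), and IgG was higher in the Klf4 peak, at 1.90 RPM per kb against 0.77.

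Upstream of Klf2 the flank held 2 LSD1 peaks and 4 H3K4me2 peaks. The LSD1 peak on chromosome 8 from 74794229 to 74794985, ending at -47915 bp relative to the start, held 34 LSD1 reads and 60 H3K4me2 reads, against 2 IgG reads and 1 Input read. The other LSD1 peak, from 74763753 to 74764151, held 15 LSD1 reads and 3 H3K4me2 reads, against 3 IgG reads and 0 Input reads. It touched no H3K4me2 peak, but one lay close by, from 74764282 to 74764713. That H3K4me2 peak held 9 LSD1 reads and 19 H3K4me2 reads, against 6 IgG reads and 0 Input reads. Downstream of Klf2 lay 7 H3K4me2 peaks and downstream of Klf5 lay 5, none with an LSD1 peak. Which gene any of these peaks belongs to was not tested.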
